A study of Mus musculus with 66 samples.

Results

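The 9 interferon-stimulated genes Isg15, Ifit1, Ifit2, Ifit3, Oasl2, Ddx58, Stat2, Irf7 and Irf9 were followed in C2C12 cells, a line of mouse myoblasts, 48 h after transfection with 50 nM siRNA. The 9 genes were chosen by symbol for their known place in the type I interferon response, out of 18511 genes listed in either assay. Earlier results of these data were known when the 9 genes were chosen. RNA-seq listed 5 of them (Isg15, Ifit3, Irf7, Irf9 and Oasl2) among 9999 genes, 3'READS listed 8 (all but Isg15) among 15856 genes, and 4 were listed in both. The question asked of these genes was whether any siRNA, or loss of a subunit of the Paf1 complex (Paf1C), changed the innate response of the myoblasts.

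Cells received a nonspecific control siRNA (siCtrl) or an siRNA against Paf1, Cdc73 or Ski8, the last of which is the gene Wdr61. RNA-seq counted reads from RNA depleted of rRNA, and 3'READS counted reads that span the junction of an mRNA's last base and its poly(A) tail, so that each read marks 1 cleavage and polyadenylation site (pA). Each assay had 7 libraries, with siCtrl, siPaf1 and siCdc73 each in batches 1 and 2 and siSki8 in batch 2 only. All libraries came from myoblasts of this 1 line and all were transfected, so an effect of transfection itself has no comparison here and siSki8 has no replicate. The paper lists 1 siRNA sequence per target, so an effect of the siRNA itself and of loss of the subunit cannot be told apart.

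In the type I interferon pathway, RNA sensors such as RIG-I, the product of Ddx58, detect viral or other foreign RNA and signal through the adaptor MAVS to switch on interferon genes. Secreted interferon then binds its receptor, which activates the factor ISGF3. Stat2 and Irf9 are subunits of ISGF3, which binds interferon-stimulated response elements in promoters. Among its targets are Irf7, a factor that amplifies interferon transcription, Isg15, a ubiquitin-like modifier, the Ifit proteins, which bind RNA lacking the host cap marks, and Oasl2, a member of the oligoadenylate synthetase-like family.

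The response element was searched in the promoters of the 9 genes as the letters GAAANNGAAA, or TTTCNNTTTC on the other strand, with overlapping matches counted, in windows of 300 bases that run from 250 bases before each start to 50 after it (RefSeq, GRCm38.p6). Of 11 promoter windows of the 9 genes, 5 held the motif, 1 each for Isg15, Ifit1, Ifit3, Stat2 and Ddx58, where 3.44% of all 32851 windows did. Ifit2, Irf7, Irf9 and Oasl2 had no match in their windows. The 4 matches that lie upstream of the start are shown because they are the sequence feature that these genes share, with the matched letters in capitals and each sequence read 5′ to 3′ along the gene's own strand. They lie at chr4:156200860-156200911 on the minus strand for Isg15, and on the plus strand at chr19:34640770-34640828 for Ifit1, chr19:34583358-34583431 for Ifit3 and chr10:128270261-128270300 for Stat2.
Isg15: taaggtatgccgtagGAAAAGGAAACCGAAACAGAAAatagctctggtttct
Ifit1: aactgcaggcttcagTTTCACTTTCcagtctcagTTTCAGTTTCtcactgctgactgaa
Ifit3: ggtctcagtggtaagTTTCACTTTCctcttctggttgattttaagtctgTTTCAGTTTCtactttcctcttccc
Stat2: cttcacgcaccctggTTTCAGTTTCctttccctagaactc
Isg15 carried 3 overlapping matches that begin 78 bases before its start, and Ifit1 and Ifit3 carried 2 each. A match of letters is a description of the promoter and not a measured binding site.

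In 3'READS, the 8 listed genes had 23 pAs, of which 21 were on the sense strand, out of 59578 pAs in all (mm9). Stat2 and Irf9 each used a single sense pA, and Ifit2 placed 96.6% of its reads at 1 pA, so that the counts of these genes are in effect counts of 1 mRNA end. The last 30 bases up to the pA are shown for the members that the results turn on, with the polyadenylation signal in capitals. They lie at chr19:34650984-34651013 (Ifit2), chr14:56228838-56228867 (Irf9), chr10:127729879-127729908 (Stat2) and chr5:115362210-115362239 (Oasl2), all on the plus strand, and for Irf9 and Oasl2 the annotation places the pA in the 3′ UTR of the last exon. The pAs of Ifit2 and Stat2 lie past the end of the annotated transcript.
Ifit2: gtactgatAATAAAgagtgcattaactgtt
Irf9: tccaaATTAAAttttgccttttctaagtta
Stat2: atAATAAActtttgttaaaacaacaacaaa
Oasl2: gcttgttaAATAAAgaagcgaaccagagaa
Of these ends, Ifit2, Stat2 and Oasl2 carry the canonical AATAAA and Irf9 carries the common variant ATTAAA.

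RNA-seq libraries held 2796693 to 8160386 reads and 3'READS libraries 5302728 to 14340927. A count of 0 allows up to 3 reads, which is 0.419 to 1.05 CPM (reads scaled to library size after TMM) in RNA-seq and 0.198 to 0.651 CPM in 3'READS. The siPaf1 library of batch 2 stood apart in 3'READS, since 260 genes, none (0) of them a member, had at least 30 reads there and over 20-fold more CPM than in every other library, and together they took 1.01% of its reads. No such gene was found in the other 13 libraries (0 in each). Each targeted gene was lowest in its own knockdown in RNA-seq, with Paf1 at 20.3 and 31.1 CPM after siPaf1 against 107 and 160 CPM after siCtrl, Cdc73 at 14.2 and 22.0 CPM after siCdc73 against 109 and 98.4 CPM, and Wdr61 at 5.97 CPM after siSki8 against 49.7 and 129 CPM. Myoblast markers summed to 17450 to 39490 CPM in RNA-seq and leukocyte markers, of which 6 of 16 were listed, to 6.63 to 41.3 CPM. In 3'READS, 13 of 16 leukocyte markers were listed and summed to 6.48 to 15.5 CPM against 2090 to 3153 CPM for myoblast markers, and no listed marker was at 0 in all libraries. Myotube markers were higher in batch 2 of each group, at 121 to 260 CPM in RNA-seq against 20.3 to 49.9 CPM in batch 1, and within each batch they were highest after siPaf1. In bulk samples such as these, fewer cells that express a gene and less of its RNA per cell cannot be told apart.

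The levels of the 9 genes after siCtrl, in cells that were also transfected, ranged from among the lowest to among the highest of all genes. Per length, Irf9 and Isg15 led in RNA-seq, with Irf9 at 10.3 and 9.12 RPKM in batches 1 and 2 and Isg15 at 9.71 and 4.09 RPKM. Oasl2 followed at 3.28 and 1.22 RPKM, whereas Ifit3 (0.417 and 0.211 RPKM) and Irf7 (0.245 and 0.559 RPKM) had 9 reads and 4, and 6 reads and 12. Irf9, the DNA-binding subunit of ISGF3, thus stood above 45.7% and 46.8% of genes with reads, and Ifit3 above 13.8% and 10.3%. In 3'READS, where each mRNA end gives 1 read whatever its length, the ISGF3 subunits Stat2 (105 and 176 CPM) and Irf9 (80.7 and 64.1 CPM) stood far above the other members. Stat2 exceeded 88.9% and 93.5% of genes, and the sensor gene Ddx58 (6.90 CPM in both libraries) 42.7% and 44.0%. Ifit2, at 13.3 and 7.0 CPM, was the only effector over 5 CPM in both siCtrl libraries. Interferon genes themselves were hardly read in RNA-seq, with 0 to 1 reads of Ifnb1 per library and 0 reads of Ifna1 and Ifna4 in every library.

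**Figure D1:**
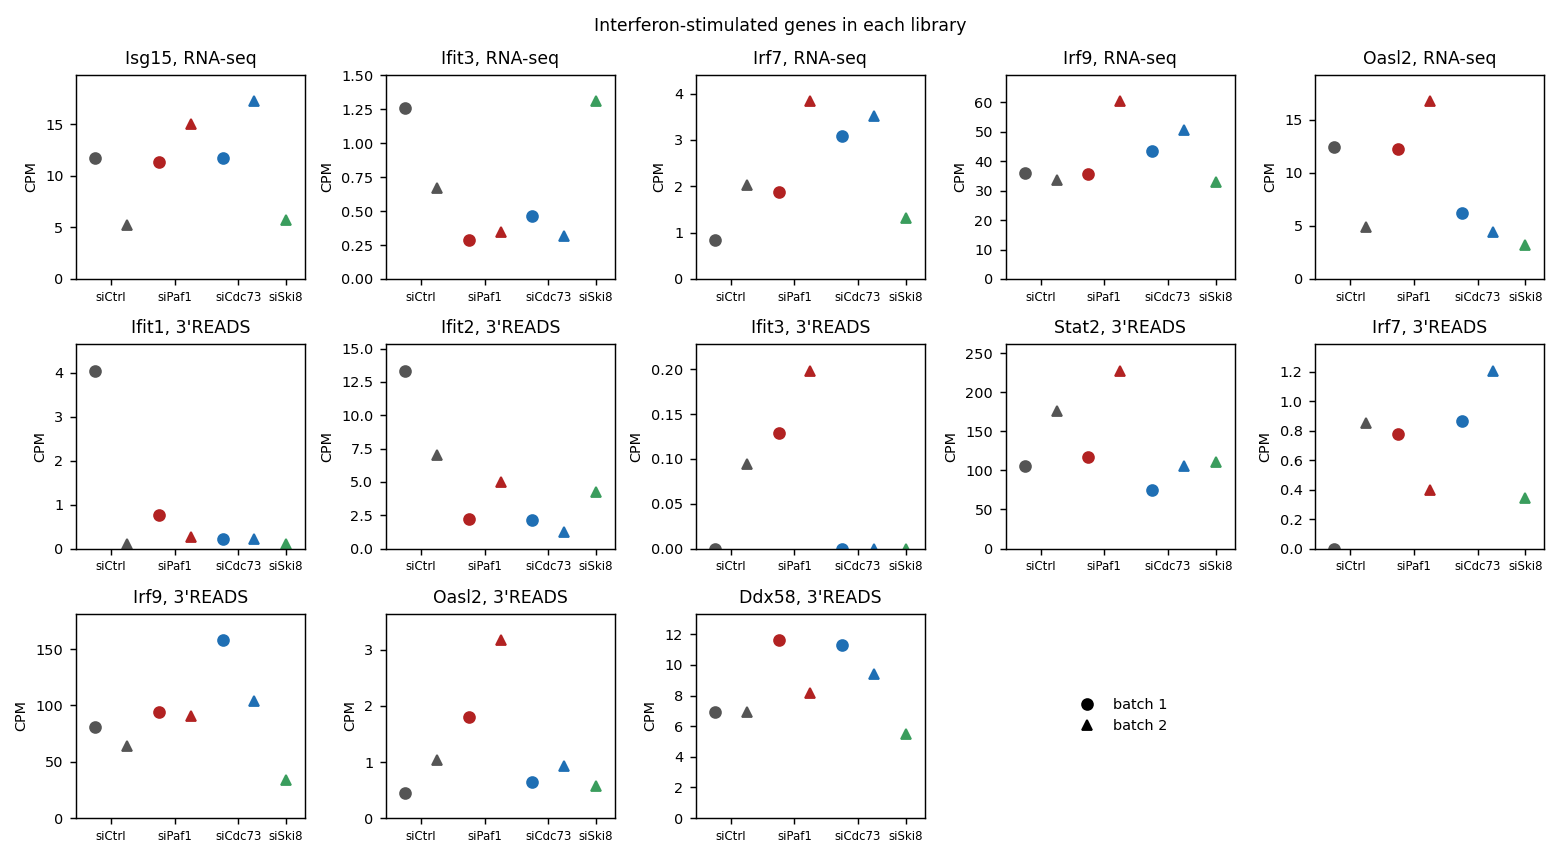
Level in CPM of each listed gene in every library, 1 panel per gene and assay with its own vertical axis from 0, with points coloured by siRNA, circles for batch 1 and triangles for batch 2. Ifit2 lies below both siCtrl points in all 5 knockdown libraries, and Irf9 in 3'READS runs from 34.0 CPM after siSki8 to 158 CPM after siCdc73 in batch 1.

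Without a batch term, edgeR called no member (0) between a knockdown and siCtrl in either assay, and DESeq2 called 1. Enough reads for a test remained for 4 members of 6521 genes in RNA-seq (Isg15, Irf7, Irf9 and Oasl2) and for 6 members of 12579 genes in 3'READS (Ddx58, Ifit1, Ifit2, Irf9, Oasl2 and Stat2), whereas Ifit3 in both assays and Irf7 in 3'READS fell under the filter. In edgeR's quasi-likelihood test, 0 of 4 and 0 of 6 members had an adjusted p under 0.05 after siPaf1, siCdc73 or siSki8, and 0.0% of all genes tested did so in each of these comparisons. At an unadjusted p under 0.05 the RNA-seq members still numbered 0, beside 1156, 1377 and 361 of all genes, and in 3'READS only Ifit2 after siCdc73 passed, beside 1703, 1929 and 419 of all genes. DESeq2 without a batch term called 369, 519 and 6 genes in RNA-seq, 0 of them members, and 441, 628 and 0 in 3'READS, among which Ifit2 after siCdc73 was the single member (1).

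With the batch as a block, the coefficient of variation between libraries beyond counting error fell from 0.397 to 0.179 in RNA-seq and from 0.515 to 0.247 in 3'READS. RNA-seq then called 32.5% of all genes after siPaf1, 39.9% after siCdc73 and 5.41% after siSki8, but 0 of 4 members in each comparison, and 0 of 4 even at an unadjusted p under 0.05. DESeq2 with the block also called 0 members there. 3'READS called 18.8%, 22.5% and 0.151% of all genes, and its members numbered 0 of 6 after siPaf1, 2 of 6 after siCdc73 and 0 of 6 after siSki8. The 2 were Ifit2, which fell, and Irf9, which rose. For the comparisons with 0 members, 1 had an unadjusted p under 0.05 after siPaf1 (Ifit2) and 1 after siSki8 (Irf9). The p-values measure the spread between these libraries, and the labels name batches without saying how the cultures of a batch were kept apart.

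Across the 3 knockdowns the changes of the members did not all have one sign. With the block, 4 of 4 members had a change above 0 in RNA-seq after siPaf1, 3 of 4 after siCdc73 and 0 of 4 after siSki8, and in 3'READS these were 4, 3 and 0 of 6. Their median log2 change in RNA-seq was 0.67 for siPaf1, 0.57 for siCdc73 and -0.45 for siSki8, beside medians over all genes tested of 0.03, -0.02 and 0.02. In 3'READS the medians were 0.32, -0.28 and -0.79 beside 0.08, -0.02 and -0.06. No single member passed the test after siPaf1 or siSki8, and the siSki8 values rest on 1 library. The share of all genes with a change above 0 was not counted. In RNA-seq, the siPaf1 ratio to siCtrl in batch 1 was 0.968 for Isg15, 0.997 for Irf9, 0.983 for Oasl2 and 2.23 for Irf7. In batch 2 these ratios were 2.88, 1.80, 3.43 and 1.90. After siPaf1, Isg15 was at -0.08 without the siCtrl library of batch 2. For siSki8, leaving out that siCtrl library brought Irf7 in RNA-seq and Oasl2 and Stat2 in 3'READS above 0 without the block, and leaving out that of batch 1 brought Isg15 above 0. The log2 changes of the comparisons with siCtrl share the same siCtrl libraries and are not independent of each other.

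**Figure D2:**
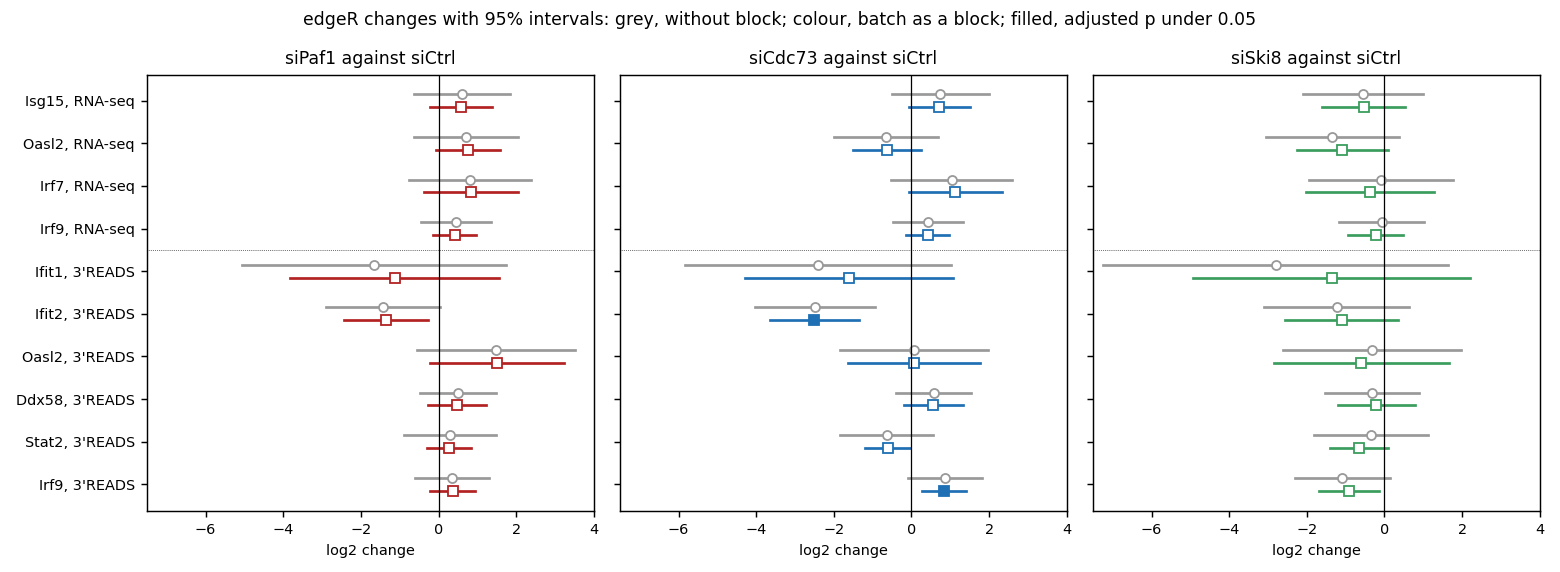
Log2 change of each tested member against siCtrl after siPaf1, siCdc73 and siSki8, with its 95% confidence interval from edgeR without a block (grey circles) and with the batch as a block (coloured squares, filled where the adjusted p is under 0.05). With the block, the interval of Ifit2 after siCdc73 lies from -3.66 to -1.35 and that of Irf9 in 3'READS from 0.26 to 1.42, the 2 members that passed the test.

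Ifit2, which encodes an RNA-binding effector, gave the largest change among the members called. Its level was 13.3 and 7.0 CPM with siCtrl in batches 1 and 2, 2.19 and 4.96 CPM with siPaf1, 2.17 and 1.21 CPM with siCdc73 and 4.21 CPM with siSki8. All 5 knockdown libraries were below both control libraries. How many of all genes separate in this way, here or where other genes are described so below, was not counted. After siCdc73 the log2 change was -2.50 with the block (95% confidence interval -3.66 to -1.35, edgeR adjusted p = 0.00421) and -2.49 without it (-4.03 to -0.95, edgeR adjusted p = 0.177). The ratio to siCtrl within a batch was 0.163 in batch 1 and 0.173 in batch 2, with exact 95% counting intervals of 0.0754 to 0.313 and 0.0954 to 0.295. The call was lost without the siCtrl library of batch 1, where the change was -1.87 and the edgeR adjusted p 0.0715.

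After siPaf1, Ifit2 depended on which siPaf1 library was used. With both libraries the log2 change was -1.35 with the block (-2.44 to -0.27, edgeR adjusted p = 0.0759), and without the siPaf1 library that stood apart it was -2.45 (edgeR adjusted p = 0.00217), where 13.9% of all genes were called. The within-batch ratios were 0.164 in batch 1 (0.0917 to 0.278) and 0.709 in batch 2 (0.507 to 0.991). Without the siPaf1 library of batch 1, the change was -0.51 (edgeR adjusted p = 0.568). After siSki8 the ratio in batch 2 was 0.602 (0.394 to 0.904), and the test gave a change of -1.10 with an edgeR adjusted p of 0.588.

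Ifit1 and Ifit3 were close to the limit of detection. Ifit1 had 27 reads in the siCtrl library of batch 1 and 1 to 6 reads in each of the other 6 libraries, the second siCtrl library with its single read included. This put the 2 siCtrl libraries at 4.05 and 0.0945 CPM, and the knockdown libraries lay between them, from 0.114 to 0.774 CPM. The log2 changes of Ifit1 were -1.13, -1.61 and -1.36 after siPaf1, siCdc73 and siSki8 with the block (edgeR adjusted p = 0.571, 0.395 and 0.837). Ccl5, a chemokine gene that interferon and NF-kB signalling both induce, was high in the same siCtrl library in 3'READS, at 36.3 CPM against 0.472 CPM in the siCtrl library of batch 2. The summed leukocyte markers were 15.4 and 6.52 CPM in these 2 libraries, and their part in the Ifit1 and Ccl5 counts was not tested. Ifit3 had 1 to 9 reads per library in RNA-seq and 0 to 3 in 3'READS. A close copy of Ifit3, Ifit3b, lies in the same gene cluster, so uniquely mapped reads may undercount it, and no change can be read at this depth.

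Isg15, whose product is a ubiquitin-like modifier of antiviral and host proteins, was listed in RNA-seq only. The siCtrl libraries had 11.7 CPM (84 reads) and 5.21 CPM (31 reads), siPaf1 had 11.4 and 15 CPM, siCdc73 11.8 and 17.2 CPM, and siSki8 5.67 CPM. In batch 1 the 3 libraries thus stood within 11.4 to 11.8 CPM, and in batch 2 the siPaf1 and siCdc73 libraries were above those of siCtrl and siSki8. The ratios to siCtrl in batch 1 were 0.968 after siPaf1 (0.703 to 1.33) and 1.00 after siCdc73 (0.725 to 1.38), while in batch 2 they were 2.88 (1.77 to 4.73) and 3.31 (2.09 to 5.32). Across both batches the log2 changes were 0.59 (-0.21 to 1.38, edgeR adjusted p = 0.262) and 0.72 (-0.07 to 1.51, edgeR adjusted p = 0.139) with the block, and after siSki8 -0.54 (edgeR adjusted p = 0.6). The difference between the ratios of the 2 batches was not tested. Without the siCtrl library of batch 1 the changes were 1.52 (edgeR adjusted p = 0.0417) after siPaf1 and 1.65 (edgeR adjusted p = 0.0195) after siCdc73, and without that of batch 2 they were -0.08 and 0.04.

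Oasl2 had the same pattern as Isg15 after siPaf1 in RNA-seq but not after siCdc73. Its level was 12.4 and 4.88 CPM after siCtrl, 12.2 and 16.7 CPM after siPaf1, 6.19 and 4.47 CPM after siCdc73 and 3.20 CPM after siSki8. The siPaf1 ratio to siCtrl was 0.983 in batch 1 (0.721 to 1.34) and 3.43 in batch 2 (2.12 to 5.65), and the siCdc73 ratio was 0.498 (0.334 to 0.731) and 0.916 (0.447 to 1.79). No comparison with siCtrl passed the test, with log2 changes of 0.76, -0.63 and -1.09 after siPaf1, siCdc73 and siSki8 with the block (edgeR adjusted p = 0.157, 0.242 and 0.285). Leaving out the siPaf1 library of batch 1 moved the siPaf1 change to 1.52 (edgeR adjusted p = 0.0108). In 3'READS, Oasl2 had only 3 to 48 reads per library, and both siPaf1 libraries, at 1.81 and 3.17 CPM, were above the other 5, at 0.450 to 1.04 CPM. The change after siPaf1 there was 1.51 (edgeR adjusted p = 0.207).

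The ISGF3 subunits were the best measured members. In 3'READS, Irf9 had 80.7 and 64.1 CPM after siCtrl, 93.8 and 90.6 CPM after siPaf1, 158 and 104 CPM after siCdc73 and 34.0 CPM after siSki8. All siPaf1 and siCdc73 libraries were above both siCtrl libraries and the siSki8 library was below them. Irf9 rose after siCdc73 with the block, by a log2 change of 0.84 (0.26 to 1.42, edgeR adjusted p = 0.0367), against 0.85 (-0.10 to 1.81, edgeR adjusted p = 0.372) without it. The within-batch ratios were 1.96 (1.75 to 2.19) and 1.63 (1.48 to 1.79). Scaled by library size alone, the change with the block was 0.75 (edgeR adjusted p = 0.0636). The call held without either siPaf1 library, including the one that stood apart (0.83, edgeR adjusted p = 0.00393), and was lost without any of the 2 siCtrl or 2 siCdc73 libraries, where the edgeR adjusted p was 0.191, 0.213, 0.331 and 0.0781. The change after siPaf1 was 0.36 (edgeR adjusted p = 0.372) and after siSki8 -0.91 (-1.68 to -0.14, edgeR adjusted p = 0.326).

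RNA-seq gave Irf9 at 35.9 and 33.5 CPM after siCtrl, 35.8 and 60.4 CPM after siPaf1, 43.5 and 50.4 CPM after siCdc73 and 32.9 CPM after siSki8. Both siCdc73 libraries were above both siCtrl libraries here too. The log2 change after siCdc73 was 0.42 with the block (edgeR adjusted p = 0.217), smaller than in 3'READS, and the siSki8 ratio of 0.983 in batch 2 (0.809 to 1.20) stood beside 0.531 (0.462 to 0.609) in 3'READS. The difference between the assays was not tested. After siPaf1 the RNA-seq change was 0.42 (edgeR adjusted p = 0.25), and without the siPaf1 library of batch 1 it was 0.78 (edgeR adjusted p = 0.0318).

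Stat2, measured in 3'READS only, had 105 and 176 CPM after siCtrl, 118 and 228 CPM after siPaf1, 75.1 and 105 CPM after siCdc73 and 111 CPM after siSki8. Within each batch, siPaf1 was highest and siCdc73 lowest. The ratios to siCtrl were 1.12 and 1.29 with siPaf1, 0.712 and 0.596 with siCdc73 and 0.628 with siSki8. None of these passed the test with the block, at log2 changes of 0.27, -0.61 and -0.66 (edgeR adjusted p = 0.525, 0.117 and 0.508). Stat2 was the member whose level differed between batches, with a log2 difference of 0.73 in favour of batch 2 (0.26 to 1.20, edgeR adjusted p = 0.022), where 27.5% of all genes in 3'READS differed, and without either siCtrl library the edgeR adjusted p was 0.0967 and 0.0945. In RNA-seq 41.2% of all genes differed between batches and 0 of 4 members did.

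Irf7, the amplifier of interferon transcription, was low in RNA-seq, with 6 and 12 reads after siCtrl, 13 and 11 with siPaf1, 20 and 11 with siCdc73 and 9 with siSki8. On the CPM scale the siPaf1 and siCdc73 libraries of a batch were above its siCtrl library, but siPaf1 in batch 1 (1.87 CPM) overlapped siCtrl in batch 2 (2.02 CPM). The changes were 0.83, 1.13 and -0.37 after siPaf1, siCdc73 and siSki8 (edgeR adjusted p = 0.301, 0.121 and 0.842 with the block). 3'READS gave 0 to 17 reads of Irf7 per library and no test.

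Some members passed the test between 2 knockdowns without passing it against siCtrl. Without the block, edgeR called 0 members and 0.0% of all genes in any comparison between knockdowns or in the joint test of any knockdown, in either assay, although Oasl2 between siPaf1 and siSki8 in RNA-seq and Irf9 against siSki8 in 3'READS had an unadjusted p under 0.05. DESeq2 without the block called 1 member, Irf9 between siCdc73 and siSki8 in 3'READS, among 213 genes, and 0 members among the 741 and 796 genes of its joint tests in RNA-seq and 3'READS. With the block, Oasl2 in RNA-seq was higher on the log2 scale after siPaf1 than after siCdc73 by 1.39 (0.50 to 2.27, edgeR adjusted p = 0.0176), and higher than after siSki8 by 1.84 (0.68 to 3.01, edgeR adjusted p = 0.0157). It was the single member (1 of 4) in these comparisons, which called 28.2% and 28.6% of all genes, and 0 of 4 members passed between siCdc73 and siSki8, beside 28.6% of all genes.

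In RNA-seq without the siPaf1 library of batch 2, these differences of Oasl2 were 0.76 (edgeR adjusted p = 0.228) and 0.88 (edgeR adjusted p = 0.356), and without either siCdc73 library the first was 1.4 (edgeR adjusted p = 0.121) and 1.37 (edgeR adjusted p = 0.125).

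In 3'READS with the block, Stat2 was higher after siPaf1 than after siCdc73 by 0.88 (0.31 to 1.46, edgeR adjusted p = 0.0406), where 14.4% of all genes were called. The call was lost without the siPaf1 library that stood apart (0.71, edgeR adjusted p = 0.143) or either siCdc73 library (1.06 and 0.72, edgeR adjusted p = 0.085 and 0.394). Irf9 was higher than after siSki8 both after siCdc73, by 1.75 (0.95 to 2.55, edgeR adjusted p = 0.00901), and after siPaf1, by 1.28 (0.50 to 2.05, edgeR adjusted p = 0.0299), in comparisons that called 10.2% and 13.5% of all genes. The first held without any 1 replicated library, at 1.61 to 2.01, and the second was lost without the siPaf1 library that stood apart (1.00, edgeR adjusted p = 0.164). Both rest on the single siSki8 library. Each of these 3 comparisons called 1 of 6 members. In the joint test of any knockdown with the block, 1 of 4 members passed in RNA-seq (Oasl2, edgeR adjusted p = 0.00969), where 58.3% of all genes did, and 3 of 6 in 3'READS (Ifit2, Irf9 and Stat2, edgeR adjusted p = 0.0128, 0.00924 and 0.0444), where 33.1% did. DESeq2 with the block called Oasl2 between siPaf1 and siSki8 but 0 members between siPaf1 and siCdc73 in RNA-seq. In 3'READS it called Stat2 between siPaf1 and siCdc73, Irf9 and Stat2 between siPaf1 and siSki8, and Irf9 between siCdc73 and siSki8. Its joint test called Oasl2 in RNA-seq, among 3128 of 7906 genes. In 3'READS that test called Irf9 and Stat2 but not Ifit2, among 3271 of 15777 genes.

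No change in the amount of Ddx58, the gene of the sensor RIG-I, passed the test. It had 6.90 CPM in both siCtrl libraries, 11.6 and 8.20 CPM after siPaf1, 11.3 and 9.44 CPM after siCdc73 and 5.46 CPM after siSki8, so that all 4 siPaf1 and siCdc73 libraries were above siCtrl. The share of all genes that separate so was not counted. The log2 changes were 0.48, 0.56 and -0.21 with the block (edgeR adjusted p = 0.371, 0.289 and 0.937).

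Ddx58 was also the only member with enough reads at more than 1 kind of pA for a test of pA use. One pA lay in intron 2 of 17, 5081 bases from the start, at position 40181780 of chromosome 4 on the minus strand (mm9), and took 5.48% of the reads of the gene. The sequence at chr4:40181760-40181819 is shown, read along the gene, because an mRNA that ends there holds only the first 2 of the 18 exons of the sensor gene. The capitals mark a polyadenylation signal, which lies 24 bases upstream of the pA.
Ddx58 intron 2: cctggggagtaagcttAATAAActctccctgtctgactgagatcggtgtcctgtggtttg
This pA had 0 and 1 reads after siCtrl, 6 and 6 with siPaf1, 6 and 11 with siCdc73 and 1 with siSki8. As a share of the reads at this pA and at the 2 main last-exon pAs, it was 0.0% (exact 95% interval 0.0 to 7.71%) and 1.41% (0.0357 to 7.60%) after siCtrl and 6.74% (2.51 to 14.1%) and 5.22% (1.94 to 11.0%) after siPaf1. After siCdc73 it was 13.3% (5.05 to 26.8%) and 8.87% (4.51 to 15.3%), and after siSki8 2.17% (0.0550 to 11.5%). All 4 siPaf1 and siCdc73 libraries were thus above the other 3. The share of other genes whose intronic pAs separate so was not counted.

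The ratio of intronic to last-exon reads of Ddx58 did not pass the test over 1766 genes. Its log2 change after siCdc73 was 2.08 without the block (0.30 to 3.86, edgeR adjusted p = 0.171) and 2.04 with it (0.36 to 3.72, edgeR adjusted p = 0.0675), and after siPaf1 1.34 (edgeR adjusted p = 0.316) and 1.31 (edgeR adjusted p = 0.228). Without the block this test called 2.38%, 4.13% and 0.0% of genes after siPaf1, siCdc73 and siSki8, and with it 23%, 23.2% and 0.113%. The median change over all genes tested was 0.61, 0.84 and -0.04 with the block. Over the last-exon pAs the share of the proximal pA was 71.7% and 58.6% after siCtrl, 77.1% and 45.9% with siPaf1, 84.6% and 77.9% with siCdc73 and 91.1% with siSki8, with overlap between siCtrl and siPaf1. This ratio did not pass either, among 4567 genes of which 0.0% were called without the block in each comparison and 6.79%, 4.29% and 0.307% with it. For Ddx58 its log2 change with the block was -0.17, 1.17 and 2.55 after siPaf1, siCdc73 and siSki8 (edgeR adjusted p = 0.948, 0.563 and 0.504).

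**Figure D3:**
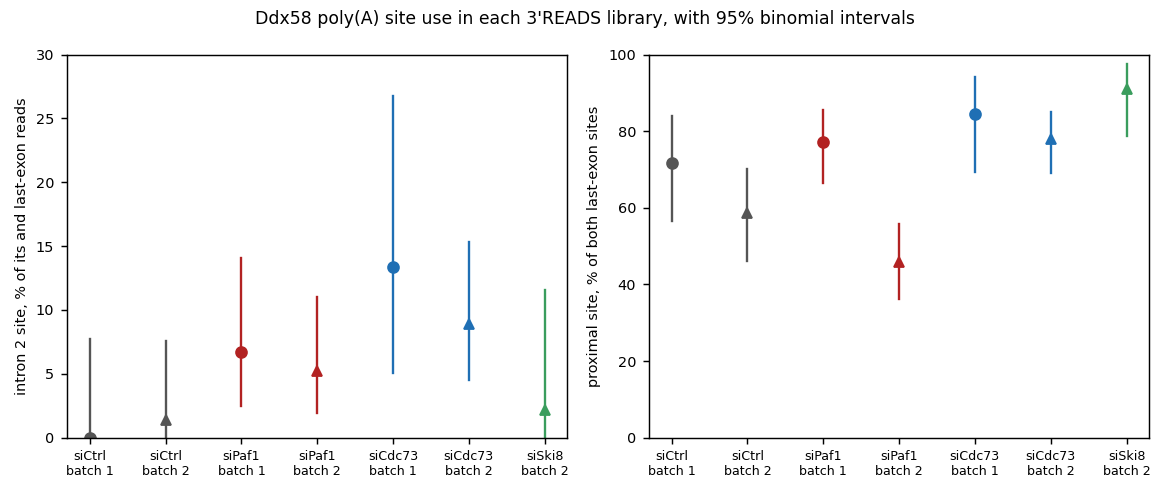
Use of Ddx58 pAs in each 3'READS library, as the percent of reads at the intron 2 pA and the percent of last-exon reads at the proximal pA, with exact 95% intervals. The intronic share lies between 5.22% and 13.3% in the siPaf1 and siCdc73 libraries and between 0.0% and 2.17% in the siCtrl and siSki8 libraries.

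Other genes of the pathway were counted from lists of sensors, signalling genes, effectors, antigen presentation genes and NF-kB genes. Without the block, edgeR called 0 genes of these lists in any comparison with siCtrl, with 0 to 8 genes of a list at an unadjusted p under 0.05. DESeq2 without the block called 2 and 4 of 35 effectors after siPaf1 and siCdc73 in RNA-seq and 4 and 0 of 64 in 3'READS. It called 3 and 1 of 13 NF-kB genes in RNA-seq and 3 and 2 of 25 in 3'READS, and 1 gene of each other list after siCdc73 in 3'READS. These counts stand beside 369 and 519 of all 7906 genes in RNA-seq and 441 and 628 of all 15777 in 3'READS. All counts that follow are from edgeR with the block unless DESeq2 is named. Those of edgeR stand beside 32.5% and 39.9% of all genes called after siPaf1 and siCdc73 in RNA-seq and 18.8% and 22.5% in 3'READS. Those of DESeq2 with the block stand beside 1678 and 2172 of 7906 genes in RNA-seq and 1741 and 2378 of 15777 in 3'READS.

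Markers of muscle differentiation moved in the same comparisons. After siPaf1, 3 of 5 myotube markers rose and 0 fell in RNA-seq, and 2 of 9 rose and 0 fell in 3'READS, with list medians of 0.90 and 0.99. Myh1, a myosin heavy chain gene, rose by 4.49 in RNA-seq (edgeR adjusted p = 1.96e-09), and Acta1, the skeletal muscle actin gene, by 1.61 in 3'READS (edgeR adjusted p = 0.00221). After siCdc73, 2 of 5 rose in RNA-seq, and 2 of 9 fell in 3'READS. The summed myotube markers were 49.9 and 260 CPM after siPaf1 in RNA-seq, against 20.3 and 121 CPM after siCtrl and 22.1 and 196 CPM after siCdc73, and in 3'READS 206 and 482 CPM after siPaf1 against 131 and 263 CPM after siCtrl. Their part in the changes of the pathway lists was not tested.

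Among the RNA and DNA sensors and their adaptors, 9 were tested in RNA-seq, of which 2 fell and 0 rose after siPaf1, and 1 rose and 1 fell after siCdc73. In 3'READS 20 were tested, of which 3 fell and 0 rose after siPaf1, and 1 rose and 3 fell after siCdc73. None of these counts, 2 of 9 after each knockdown and 3 and 4 of 20, was above the share of all genes called, and DESeq2 with the block called 0 and 1 of 9 in RNA-seq and 1 and 2 of 25 in 3'READS. Their median log2 change after siPaf1 was -0.56 in RNA-seq and -0.49 in 3'READS, beside 0.03 and 0.08 over all genes, and after siCdc73 and siSki8 it was -0.12 and -0.22 in RNA-seq and 0.04 and -0.18 in 3'READS. Mavs, the adaptor that RIG-I signals through, fell in 3'READS after both siPaf1 (-0.93, edgeR adjusted p = 0.025) and siCdc73 (-1.79, edgeR adjusted p = 0.00043). It had 220 and 280 CPM after siCtrl, 107 and 158 CPM after siPaf1, 69.5 and 73.9 CPM after siCdc73 and 123 CPM after siSki8, and no knockdown library reached the level of either siCtrl library. Ifih1, which encodes the RNA sensor MDA5, fell after siPaf1 in RNA-seq by 1.21 on the log2 scale (edgeR adjusted p = 0.0146), from 14.7 and 14.6 CPM to 3.74 and 10.1 CPM, but DESeq2 with the block gave it an adjusted p of 0.067. Without the siPaf1 library that stood apart, the median log2 change of the sensors after siPaf1 in 3'READS was -0.41.

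Genes of interferon receptors and JAK-STAT signalling gave 1 rise of 8 tested with siPaf1 in RNA-seq, 2 with siCdc73 and 1 with siSki8, and 0 of them fell. Of 15 in 3'READS, 3 rose and 0 fell after siPaf1, and 1 rose and 2 fell after siCdc73. The RNA-seq counts after siPaf1 and siCdc73 lie below the share over all genes, and 3 of 15 is close to it after either knockdown in 3'READS. DESeq2 with the block called 0 and 2 of 9 after siPaf1 and siCdc73 in RNA-seq and 3 and 3 of 18 in 3'READS. Without the siPaf1 library that stood apart, the median log2 change of this list after siPaf1 in 3'READS was 0.82. The medians were 0.41, 0.25 and 0.17 in RNA-seq and 0.61, 0.45 and -0.03 in 3'READS after siPaf1, siCdc73 and siSki8. Stat3, a cytokine-responsive transcription factor, rose after siCdc73 in RNA-seq (0.83, edgeR adjusted p = 0.00577) and in 3'READS (1.10, edgeR adjusted p = 0.0125). The kinase genes of the interferon receptors gave Tyk2 at 1.27 and Jak2 at 1.12 after siPaf1 in 3'READS (edgeR adjusted p = 0.0139 and 0.0152), and without the siPaf1 library that stood apart Tyk2 no longer passed (edgeR adjusted p = 0.117). Irf5 rose after siPaf1 (1.26, edgeR adjusted p = 0.0317) and fell after siCdc73 (-2.25, edgeR adjusted p = 0.00198) there, with 11.3 and 6.05 CPM after siCtrl, 20.0 and 20.8 CPM after siPaf1, and 1.09 and 1.85 CPM after siCdc73. RNA-seq had few reads of Irf5, with 13 and 4 after siCtrl, 28 and 8 after siPaf1 and 10 and 3 after siCdc73. On the CPM scale, siCdc73 was at 1.55 and 0.957 there, beside 1.82 and 0.673 after siCtrl. Its rise was not called by DESeq2 with the block (adjusted p = 0.117) or without the siPaf1 library that stood apart (edgeR adjusted p = 0.139).

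The other interferon-stimulated effectors moved in both directions. In RNA-seq 4 rose and 6 fell of 30 after siPaf1, 6 rose and 4 fell after siCdc73, and 4 fell after siSki8. In 3'READS 7 rose and 4 fell of 45 after siPaf1, and 6 rose and 3 fell after siCdc73. In RNA-seq, 10 of 30 after siPaf1 is close to the 32.5% of all genes called and 10 of 30 after siCdc73 is under 39.9%, and in 3'READS 11 and 9 of 45 stand beside 18.8% and 22.5%. DESeq2 with the block called 7 and 10 of 35 in RNA-seq and 9 and 10 of 64 in 3'READS. Without the siPaf1 library of batch 2, 8 rose and 7 fell of 29 after siCdc73 in RNA-seq, where 52.1% of all genes were called. The list medians after siPaf1, siCdc73 and siSki8 were -0.22, 0.06 and -0.31 in RNA-seq and 0.31, 0.20 and -0.36 in 3'READS, and the 0.31 after siPaf1 turned to -0.15 without the library that stood apart. Gbp2, an interferon-inducible GTPase gene, rose in RNA-seq by 2.61 after siPaf1 (edgeR adjusted p = 6.01e-06) and 3.09 after siCdc73 (edgeR adjusted p = 3.48e-07), from 1.12 and 3.70 CPM after siCtrl to 7.62 and 26.9 CPM and to 12.7 and 32.6 CPM. Mlkl, the effector of necroptosis, fell in RNA-seq by 1.78 and 1.80 on the log2 scale (edgeR adjusted p = 2.43e-06 and 1.86e-06), from 188 and 279 CPM to 52.0 and 84.8 CPM and to 68.9 and 60.0 CPM. The groups of Gbp2 and Mlkl did not overlap between siCtrl and either knockdown, a separation whose share over all genes was not counted. Irgm1, a GTPase gene of autophagy and immunity, rose after siPaf1 in 3'READS (2.20, edgeR adjusted p = 0.000119), and Rsad2, which encodes the antiviral enzyme viperin, fell there (-2.70, edgeR adjusted p = 0.000874). Rsad2 had 27.1 and 17.0 CPM after siCtrl, 2.84 and 3.97 CPM after siPaf1, 15.8 and 49.5 CPM after siCdc73 and 4.21 CPM after siSki8. After siSki8 in RNA-seq the ubiquitin-conjugating enzyme gene Ube2l6, whose product attaches Isg15 to proteins, fell by 1.67 on the log2 scale (edgeR adjusted p = 0.0264, DESeq2 adjusted p with the block = 0.0662). Ube2l6 also fell after siPaf1 there, by 1.44 (edgeR adjusted p = 0.00176, DESeq2 adjusted p with the block = 0.00863). It had 26.0 and 33.1 CPM after siCtrl, 12.9 and 6.63 CPM after siPaf1, 17.6 and 34.2 CPM after siCdc73 and 9.75 CPM after siSki8.

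Of the antigen presentation genes, 3 rose and 1 fell of 9 after siCdc73 in RNA-seq, and 2 rose and 0 fell of 10 in 3'READS. These 4 of 9 and 2 of 10 are close to the 39.9% and 22.5% of all genes called, and DESeq2 with the block called 3 of 9 and 4 of 15. Without the siPaf1 library of batch 2, the siCdc73 count in 3'READS was 4 of 10, where 34.4% of all genes were called. The list medians were 0.05, 0.16 and -0.31 in RNA-seq and -0.04, 0.63 and -0.36 in 3'READS after siPaf1, siCdc73 and siSki8. The class I genes H2-K1 and H2-D1 rose in both assays, by 1.24 and 1.26 in RNA-seq (edgeR adjusted p = 8.49e-05 and 0.000369) and by 1.31 and 1.24 in 3'READS (edgeR adjusted p = 0.00391 and 0.00468). These genes belong to a family of near-identical copies, which makes the assignment of reads uncertain. After siPaf1, B2m, the light chain of class I molecules, was the single gene that rose in RNA-seq (1 of 9, 0.72, edgeR adjusted p = 0.0144), and 0 of 10 passed in 3'READS, with 2 at an unadjusted p under 0.05 and 2 of 15 called by DESeq2 with the block. The RNA-seq count was 3 rises and 1 fall of 9 without the siPaf1 library of batch 2, where 30.2% of all genes were called, and the list median was then 0.38.

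Of 11 NF-kB and inflammatory genes in RNA-seq, 2 rose and 4 fell after siPaf1, and 2 rose and 4 fell after siCdc73. Of 19 in 3'READS, 1 rose and 6 fell after siPaf1, and 2 rose and 5 fell after siCdc73. Their medians were -0.29, -0.55 and -0.47 in RNA-seq and -0.66, -0.65 and -0.29 in 3'READS after siPaf1, siCdc73 and siSki8. The 6 of 11 after each knockdown stand beside 32.5% and 39.9% of all genes called, and the 7 of 19 beside 18.8% and 22.5%. The 7 of 19 include after each knockdown a fall of Ccl5, whose siCtrl libraries lay at 36.3 and 0.472 CPM in batches 1 and 2. In batch 1, Ccl5 lay between these levels, at 3.74 CPM after siPaf1 and 2.60 CPM after siCdc73. DESeq2 with the block called 4 and 5 of 13 in RNA-seq and 8 and 6 of 25 in 3'READS. Without the siPaf1 library that stood apart, 1 rose and 4 fell of 19 after siPaf1, where 13.9% of all genes were called, and 2 rose and 9 fell after siCdc73, where 34.4% were. Ccl2, a monocyte chemokine gene, fell in RNA-seq by 1.92 and 1.53 on the log2 scale after siPaf1 and siCdc73 and in 3'READS by 2.88 and 1.92 (edgeR adjusted p = 7.89e-06, 9.45e-05, 3.03e-05 and 0.000409). Ptgs2, the inducible cyclooxygenase gene, rose in RNA-seq by 1.89 and 2.71 (edgeR adjusted p = 7.31e-07 and 2.38e-09), and Il33, an alarmin gene, rose after siPaf1 (2.39, edgeR adjusted p = 2.2e-06) and fell after siCdc73 (-1.27, edgeR adjusted p = 0.0112). In 3'READS, Ptgs2 rose after siCdc73 (2.30, edgeR adjusted p = 0.000103) but was not called after siPaf1. Its siPaf1 libraries there had 171 and 198 CPM, against 113 and 99.7 CPM after siCtrl. Cd14, a leukocyte marker that some other cells also express, fell after siPaf1 in RNA-seq by 2.03 on the log2 scale (edgeR adjusted p = 1.76e-05). In 3'READS its change after siPaf1 was -0.84 (edgeR adjusted p = 0.322). Cd14 made up nearly all of the summed leukocyte markers in RNA-seq, at 26.1 and 25.9 of 27.0 and 26.9 CPM after siCtrl and 7.33 and 4.88 of 9.78 and 6.63 CPM after siPaf1, while Ptprc, the pan-leukocyte gene of CD45, had 3 and 1 reads after siCtrl and 8 and 2 reads after siPaf1. In 3'READS the sum was 15.5 and 13.2 CPM after siPaf1 against 15.4 and 6.52 CPM after siCtrl.

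After siSki8, 1 of 9 sensors, 4 of 30 effectors and 1 of 11 NF-kB genes fell in RNA-seq, 1 of 8 signalling genes rose and 0 of 9 antigen presentation genes passed, with 3 at an unadjusted p under 0.05. In 3'READS 0 genes of the 5 lists passed, and at an unadjusted p under 0.05 there were 4 of 20 sensors, 1 of 15 signalling genes, 7 of 45 effectors, 3 of 10 antigen presentation genes and 2 of 19 NF-kB genes. DESeq2 with the block called 2, 0, 3, 2 and 1 genes of these lists there, where it called 172 of 15777 genes in all. The edgeR counts of genes that passed sit beside 5.41% of all genes called after siSki8 in RNA-seq and 0.151% in 3'READS. At an unadjusted p under 0.05, edgeR had 20.6% and 11.6% of all genes in the 2 assays.

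**Figure D4:**
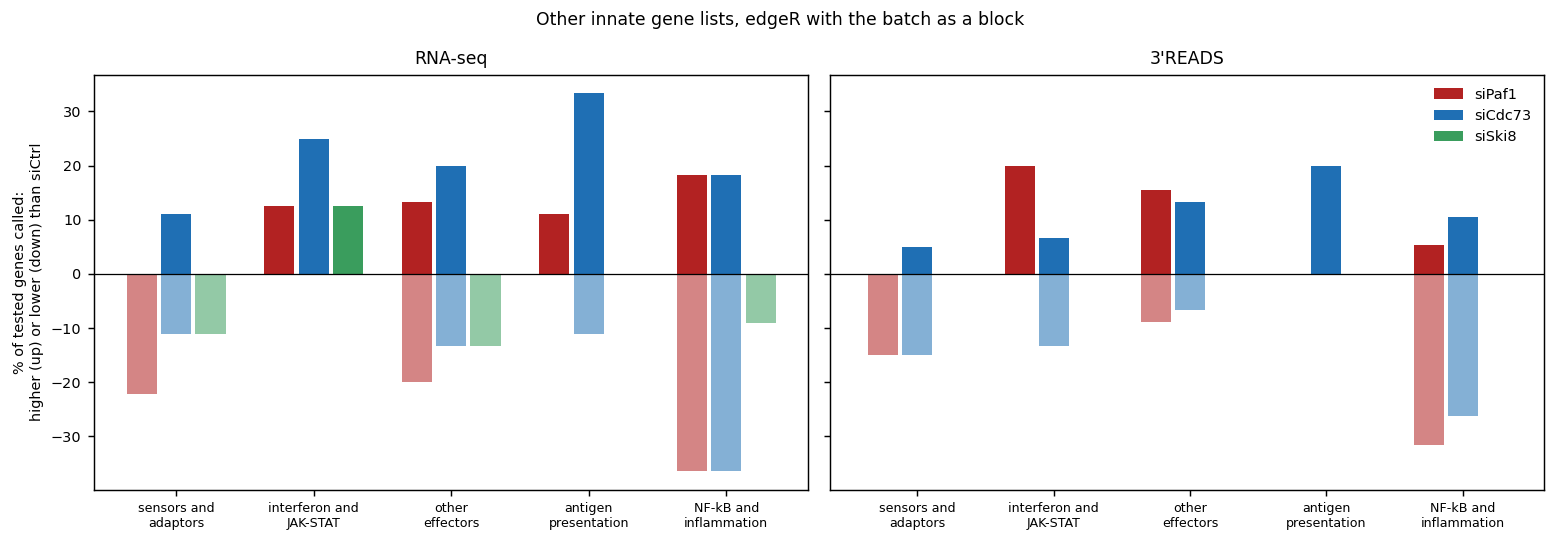
Percent of the tested genes of each pathway list called higher (dark bars, upward) or lower (pale bars, downward) than siCtrl, by knockdown and assay, from edgeR with the batch as a block. Sensors have no upward bar after siPaf1, whereas effectors have bars in both directions after siPaf1 and siCdc73, and in 3'READS siSki8 has no bar at all.

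The genes whose levels ran most like the mean profile of the listed members were found by Pearson's r of log2 CPM over the 7 libraries of each assay, a description without a test in which all points share the batches. In RNA-seq, over 5642 genes, these were Lrig3 (r = 0.981), Bcl2l12 (0.943), Wbp11 (0.936), Dnajc30 (0.919) and Trps1 (0.918). In 3'READS, over 10113 genes, they were Kcnmb4 (0.995), Ctdsp2 (0.977), Btbd3 (0.969), Pdk2 (0.966) and Ypel3 (0.963). The mean profile was highest in the siPaf1 library of batch 2 and lowest in the siSki8 library in both assays. The summed level of the listed members ran from 44.4 CPM after siSki8 to 96.3 CPM in that siPaf1 library in RNA-seq, with siCtrl at 62.2 and 46.2 CPM, and from 155 to 335 CPM in 3'READS, with siCtrl at 211 and 256 CPM.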

How the data were processed

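RNA-seq and 3'READS libraries of siRNA-transfected C2C12 myoblasts were analysed, 7 per assay, grouped by the labels, which give the siRNA and the batch. ChIP-seq samples of the series were not analysed here. For RNA-seq, alignment by the authors used bowtie2 (local mode, mm9), and from unique alignments the authors deposited counts per RefSeq transcript, restricted to the coding region, with RPKM values per transcript that the authors scaled to all uniquely mapped reads. For 3'READS, the authors deposited counts per pA of uniquely mapped reads with extra 5′ Ts that do not align, which mark the poly(A) tail. No per-sample column was left unmatched (0).

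From these, each gene of the RNA-seq table (15033 transcripts, 2816 genes with several) was stood for by its most counted transcript, and sense reads of all pAs of a gene were summed in 3'READS. Depth was 2796693 to 8160386 reads in RNA-seq and 5302728 to 14340927 in 3'READS. Counts were tested with edgeR 4.0.16 (quasi-likelihood test, TMM, its filter on low counts, prior count 2) in R 4.3.3 with limma 3.58.1, over all 7 libraries and without a batch term, and p-values were adjusted by Benjamini-Hochberg over all genes tested at a threshold of 0.05. The single siSki8 library was assumed to vary like the other groups. pA use was tested by an isoform by knockdown interaction, for genes averaging 20 reads or more per library and pAs of at least 5% of a gene's reads. DESeq2 1.42.0, other scalings and filters, a rule of >1.4-fold with Fisher's exact p under 0.01 (the cutoffs of the authors' RNA-seq methods, applied here to both assays on reads pooled over batches), and leaving out each library were alternatives.

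The batch in the labels pairs the libraries. Deviations from the group means of same-batch libraries correlated at 0.62, 0.748 and 0.633 in RNA-seq and at 0.433, 0.61 and 0.432 in 3'READS over genes, so results with the batch as a block stand beside the main ones. Exact intervals on ratios and shares cover counting error alone, at 95% if each read stands for an independent molecule. Reads of one PCR product do not, so these intervals may be too narrow. Genome positions are mm9, read from a reference of the same build, and promoters are from RefSeq on GRCm38.p6. Gene lists were described by counts and medians, naming at most 3 genes per list, assay and knockdown with the smallest blocked p among those averaging 20 reads or more per library, and the 5 genes most like the members per assay. Cd14 and the siRNA targets were named as checks. The members and the lists were chosen with earlier results of these data known. Tables, intervals and figures were made in Python 3.11.15 (pandas 2.3.3, numpy 2.4.6, matplotlib 3.10.9, scipy 1.17.1).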

Additional observations from a re-analysis of the deposited data

How the results depend on the processing

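Of 678 values of single members under an alternative, 616 kept their direction and their side of the threshold, 42 passed the threshold only under the alternative and 20 changed direction, 17 of these with a library left out. Against siCtrl the number of members called in RNA-seq stayed 0 except under the rule on reads pooled over batches, a pooling made here that ignores the spread between libraries, which called 2, 2 and 2 after siPaf1, siCdc73 and siSki8, and with a library left out, at 0 to 2 after siPaf1 and 0 to 1 after siCdc73. In 3'READS that rule called 4, 4 and 3, the batch as a replicate block 0, 2 and 0, the block without a filter on low counts 1, 2 and 0, the block with library size alone 0, 1 and 0, DESeq2 0, 1 and 0, and DESeq2 with the block 0, 2 and 0, against 0 without the block. With a library left out the range was 0 to 1 after siPaf1 and 0 to 3 after siCdc73. Between knockdowns (siPaf1 and siCdc73, siPaf1 and siSki8, siCdc73 and siSki8, then any knockdown), the block gave 1, 1, 0 and 1 in RNA-seq and 1, 1, 1 and 3 in 3'READS, the block without a filter 1, 1, 1 and 2 and 1, 1, 1 and 3, the block with library size alone 1, 3, 1 and 2 and 1, 1, 1 and 3, DESeq2 0, 0, 0 and 0 and 0, 0, 1 and 0, and DESeq2 with the block 0, 1, 0 and 1 and 1, 2, 1 and 2. With a library left out they ran from 0 to 1, 0 to 3, 0 to 1 and 0 to 3 in RNA-seq and from 0 to 2, 0 to 2, 0 to 2 and 0 to 3 in 3'READS, and between batches from 0 to 1 in both.

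The log2 change of Oasl2 after siCdc73 in 3'READS, 0.06 in the main fit, was -0.031 with library size alone, -0.021 with library size and the block, -0.005 under the pooled-read rule, and -0.31 to 0.61 with a library left out. With a library left out, with or without the block, Isg15 after siPaf1 ran from -0.083 to 1.52, Oasl2 after siCdc73 from -1.17 to 0.22, and after siSki8 Irf7 from -0.53 to 0.48 and Isg15 from -1.47 to 0.088 in RNA-seq. In 3'READS, Stat2 after siPaf1 ran from -0.26 to 0.71, and after siSki8 Ddx58 ran from -0.35 to 0.049, Oasl2 from -0.69 to 0.24 and Stat2 from -0.73 to 0.071, and the last-exon pA ratio of Ddx58 after siPaf1 ran from -1.08 to 0.82. The cause of these changes was not tested. Scaling by library size alone moved the median of all genes by more than 0.1 for siCdc73 (-0.16) and siSki8 (-0.33) against siCtrl in RNA-seq. Depth limits Ifit1, Ifit3, Irf7 and Oasl2 in 3'READS and Ifit3 and Irf7 in RNA-seq, which had at most 48 reads in any library.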

Other observations

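On the antisense strand, 3'READS placed reads of Stat2 and Irf7 at 1 pA each, which entered no comparison. The antisense pA assigned to Stat2 had 4 and 13 reads in the siCtrl libraries, 6 and 1 with siPaf1, 2 and 1 with siCdc73 and 7 with siSki8. That of Irf7 had 3 reads in the siCtrl library of batch 2 and 0 in the other 6 libraries.

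Besides the intron 2 pA, Ddx58 had 2 intronic pAs that each held under 5% of its reads and entered no test. The one in intron 11 had 7 reads, all in the siPaf1 library of batch 2, the library in which 260 other genes stood apart. The one in intron 8 had 1 read there, 3 and 2 after siCdc73, 2 after siSki8 and 0 in the other 3 libraries.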
